A study of Drosophila melanogaster with 36 samples.

Results

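The Cyp313 family of Drosophila melanogaster was described here across 9 chemical exposures on a spotted array of detoxification genes. Its members were all spots whose annotated gene symbol begins with Cyp313. This rule found 6 genes of the 159 named genes on the array, Cyp313a1, Cyp313a2, Cyp313a3, Cyp313a4, Cyp313a5 and Cyp313b1, with 4 spots each and 24 of the 656 spots that carry 1 symbol. The symbol alone chose them, and no measured value was used.

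Cytochrome P450s are haem enzymes that oxidise small lipophilic molecules, both foreign compounds such as insecticides and plant toxins and the body's own hormones and fatty acids. Some insect P450 genes are transcribed more strongly in the presence of a foreign compound, and barbiturates are the standard agents used to test for such induction. The Cyp313 genes belong to the CYP4 clan, a branch of insect P450s that also holds the Cyp4 family and Cyp311a1 and Cyp316a1. No substrate or role was assigned to an individual Cyp313 gene here, and the 6 genes are therefore treated by their place in the genome and by their values.

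All 6 genes lie on chromosome arm 3R. In the order of the reference annotation Cyp313b1 (CG9716) comes first, between Or85e and Mkk4, and 479 coding genes separate it from Cyp313a5 (CG15807). Cyp313a5, Cyp313a2 (CG10094) and Cyp313a3 (CG10093) are direct neighbours, with 0 coding genes between them. Cyp313a4 (CG6802) follows after 78 coding genes, between mbo and kar, and Cyp313a1 (CG3360) stands alone 214 coding genes further on. The family is thus a tandem group of 3 genes with single copies elsewhere on the same arm. Whether a probe of one gene also binds RNA of its neighbours was not tested.

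Larvae of the y; cn bw sp strain, 4.5 days old, were kept for 4 h on food that held 1.5 mg/ml caffeine, 10 mM phenobarbital, 0.013% diazinon, 0.067% dicyclanil, 20 ppm lufenuron, 6e-05% spinosad or 6 ppm nitenpyram, and their controls on food without the compound. Adult males of that strain, 4 days old, were kept for 4 h in vials coated from 150 µl acetone with 10 µg DDT or with 10 µl of 1 M phenobarbital, and their controls in vials without the compound. For each of the 9 exposures, RNA of 8 extractions of 50 whole animals was pooled per arm, so a pool stands for 400 individuals, and the exposed and control pools were hybridised together to 4 arrays read in a pair of colours. The exposed RNA was labelled with the dye Cy5 on arrays 1 and 3 and with Cy3 on arrays 2 and 4, so the arrays of an exposure are technical repeats of 1 pair of pools and their p-values compare 2 RNA pools, not animals or cultures.

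Each value below is the log2 of the exposed over the control reading, shifted so that the median of the 159 named genes on an array is 0, and 0 stands for the typical gene of the array and not for an absolute level. Array 4 of the DDT group and array 4 of the adult phenobarbital group held identical values in all 1936 spots and were both left out, which left 34 arrays, 4 for each larval exposure and 3 for each adult one. On these arrays 1504 to 1732 spots gave a ratio. The direction of the ratio is the likely one: the files do not state it, and it was taken as Cy5 over Cy3, under which the phenobarbital-inducible genes Cyp6a2, Cyp6a8 and Cyp6a9 were higher with phenobarbital in larvae (2.15, 1.94 and 3.58) and in adults (1.98, 4.12 and 1.24). With the other direction every higher and lower below would swap. Were the ratios of the larval insecticides and DDT already exposed over control, some members would be called changed with DDT, diazinon and nitenpyram. A gene was called changed where its adjusted p in a limma fit over all 159 genes was under 0.05 and its ratio at least 1.5-fold either way.

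No Cyp313 gene was called changed in any of the 9 exposures in the fit with 1 dye term common to all arrays. The count was 0 of 6 in each exposure, while phenobarbital changed 43.4% of all 159 genes in larvae and 18.2% in adult males, caffeine 17.6% and DDT 6.29%. Among the larval insecticides the share was 1.26% for dicyclanil, 0.629% for nitenpyram and 0% for each of the other 3. Of the 54 tests of a member in an exposure, 3 had an unadjusted p under 0.05, or 5.56%, against 15.8% over all genes and exposures. These 3 were Cyp313a4 with caffeine and Cyp313a2 and Cyp313a3 with DDT, all with ratios below 0. A missed threshold does not show that the genes did not respond, because the 6 genes were measured with wide errors.

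The arrays disagreed about these genes more than about most. The SD of the arrays about the fit was 1.26 for Cyp313a1, the widest of the 159 genes, 1.02 for Cyp313a5 (rank 6 from the widest) and 1.00 for Cyp313a2 (rank 9). It was 0.71 for Cyp313a3 (rank 28), 0.64 for Cyp313a4 (rank 39) and 0.53 for Cyp313b1 (rank 56), and all 6 lay above the median of 0.45 over all genes. The standard error of a larval ratio accordingly ran from 0.27 for Cyp313b1 to 0.63 for Cyp313a1, against a median of 0.22. Cyp313a2 also lacked a value in 25 of its 136 spot readings, or 18.4%, whereas the other members lacked 2.94% to 7.35% and the median gene 1.47%. Its value with caffeine rests on 3 arrays, since no spot gave one on array 4. No signal intensities were used, so whether the genes were dim was not tested.

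**Figure D1:**
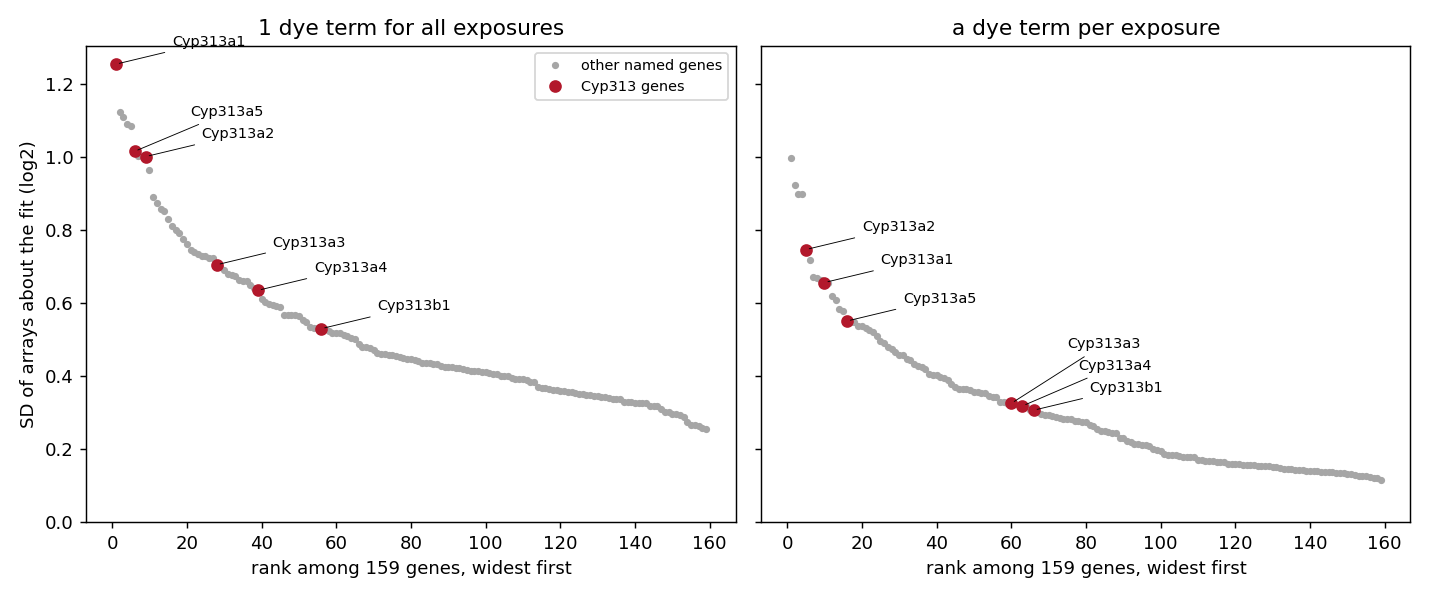
Spread of the arrays about the fit for each of the 159 named genes. The vertical axis is the SD of an array's log2 ratio about the fitted value and the horizontal axis is the gene's rank from the widest, with 1 dye term for all exposures (left) and with a dye term for each exposure (right). Cyp313 genes (red) lie above the median gene in the left panel, from 0.53 for Cyp313b1 to 1.26 for Cyp313a1, and fall to between 0.31 and 0.75 in the right panel.

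With the ratios taken as Cy5 over Cy3, much of that spread followed the dye. The 2 dye orientations gave mean ratios of opposite sign in 39 of the 54 combinations of a member and an exposure (72.2%, against 64.7% over all genes). The median absolute difference between them was 1.29 for the members and 0.75 for all genes. With diazinon, for example, Cyp313a1 read -1.67 and -0.94 on the arrays with the exposed pool in Cy5 and 2.04 and 0.98 on those with it in Cy3. With nitenpyram the same gene read 1.00 and 1.42 in Cy5 and -1.28 and -1.54 in Cy3. The orientations did not overlap in either case, and they were turned the opposite way in the second. The fitted ratios, 0.10 ± 0.63 (SE, n = 4 arrays) with diazinon and -0.10 ± 0.63 (SE, n = 4 arrays) with nitenpyram, are averages of values that no single array showed. Were the ratios of diazinon and nitenpyram already exposed over control on each array, Cyp313a1 would stand at -1.41 and 1.31 instead.

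A negative dye term means a Cy5 over Cy3 ratio below that of the array's median gene, over the exposures together. The common dye term was negative for all 6 genes. It was -1.08 ± 0.18 (SE, n = 33 arrays with a value) for Cyp313a2, the member whose dye term was called (limma, adjusted p = 4.94e-06, with 20.1% of all genes called). For the others it lay between -0.23 ± 0.12 for Cyp313a3 and -0.58 ± 0.18 for Cyp313a5. The median dye term was -0.47 over the members and -0.03 over all genes. It was not the same in each exposure: for Cyp313a5 it was -2.19 ± 0.28 in nitenpyram larvae and 0.42 ± 0.28 in lufenuron larvae.

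**Figure D2:**
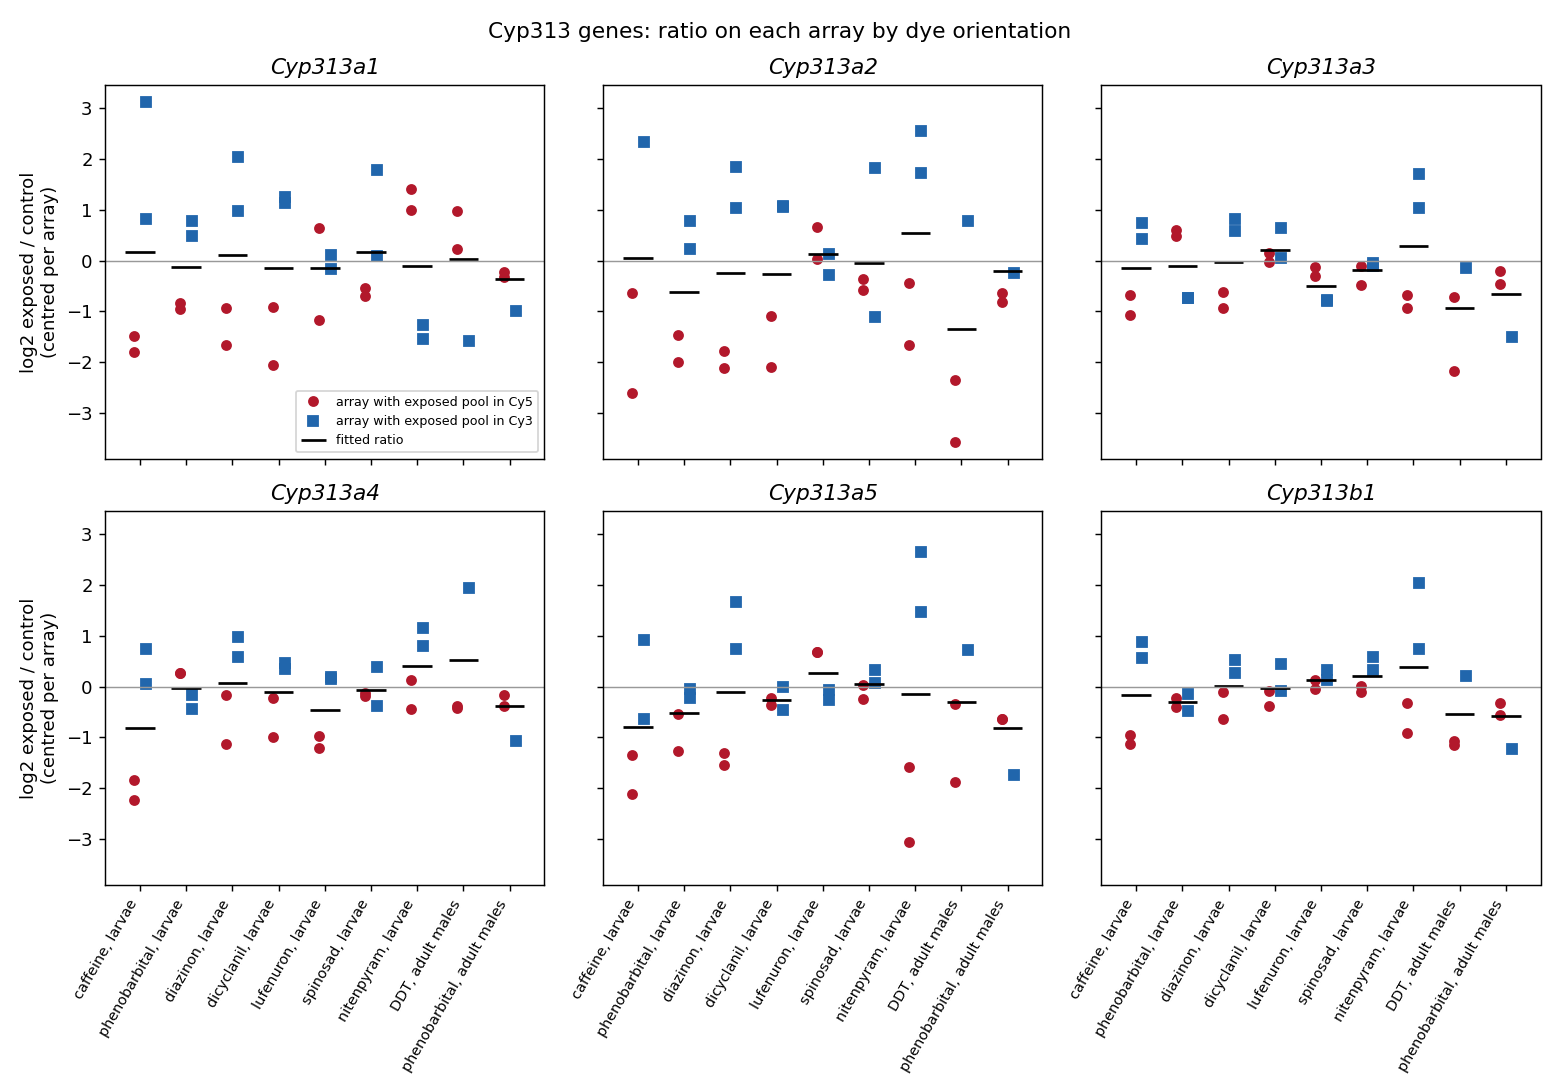
Log2 ratio of exposed over control on each array, centred on the array's median gene, for the 6 Cyp313 genes (panels) in the 9 exposures (horizontal axis). Red circles are arrays with the exposed pool in Cy5, blue squares arrays with it in Cy3, and black lines the fitted ratios. In many panels the squares lie above the circles, as for Cyp313a5 and nitenpyram at 2.65 and 1.46 against -3.07 and -1.59. In adult males with phenobarbital all points of all genes lie below 0.

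A second fit gave each exposure a dye term of its own. It lowered the median SD about the fit from 0.85 to 0.44 for the members and from 0.45 to 0.27 for all genes. Ratios of the larval exposures with 4 arrays stayed where they were, since equal numbers of arrays in each orientation cancel the dye either way, but their errors shrank and some members passed the call rule. Both fits are given below where the call of a member differs.

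No Cyp313 gene was called higher or lower with phenobarbital in larvae, the exposure with the largest share of genes called, in either fit with the arrays centred on the named genes. With a dye term for each exposure, Cyp313a3 and Cyp313a4 were called higher under other centrings. They stood at 0.61 and 0.69 with arrays centred on the 4 reference genes, against a median of 0.56 over all genes. Without centring they stood at 0.68 and 0.76, against a median of 0.63 over all genes. The fitted ratios were -0.13 ± 0.63 for Cyp313a1, -0.62 ± 0.50 for Cyp313a2, -0.10 ± 0.35 for Cyp313a3, -0.02 ± 0.32 for Cyp313a4, -0.52 ± 0.51 for Cyp313a5 and -0.31 ± 0.27 for Cyp313b1 (SE, n = 4 arrays). The adjusted p in the limma fit ran from 0.318 to 0.957. Cyp313b1 read -0.22 and -0.40 in Cy5 and -0.15 and -0.49 in Cy3, and Cyp313a5 read -0.54 and -1.28 in Cy5 and -0.05 and -0.22 in Cy3. These were the members below 0 on every array, whereas the other 4 changed sides with the dye. Over all genes 50.3% kept 1 sign on all arrays. The largest upper bound of a member's 95% interval was 1.15, for Cyp313a1, and 29 of the 36 genes called higher had fitted ratios above it.

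Of the 26 other CYP4 clan genes, 6 were called higher and 5 lower with phenobarbital in larvae, where 43.4% of all genes were called. Whether the clan and the Cyp313 family differ was not tested. Cyp4d14 rose by 3.84 ± 0.20 and Cyp4e3 by 2.18 ± 0.16, whereas Cyp311a1 fell by 2.05 ± 0.17 (SE, n = 4 arrays). Cyp4g1, the oenocyte P450 that makes cuticular hydrocarbons, fell by 0.95 ± 0.23. In samples of whole animals, fewer cells of a type and less RNA per cell cannot be told apart. The 4 reference genes were called lower as well, Gapdh1 at -0.89, RpL10Aa at -0.67, RpS20 at -0.67 and RpS21 at -0.63. The median ratio was -0.22 over the Cyp313 genes, 0.04 over the other CYP4 clan genes and -0.15 over all genes. Without centring the Cyp313 median was 0.56 and that of all genes 0.63, so the sign of the family's ratios in larvae depends on the centring. A shift of a whole array moves all genes alike and leaves the distance of 0.07 between these medians as it is by construction.

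**Figure D3:**
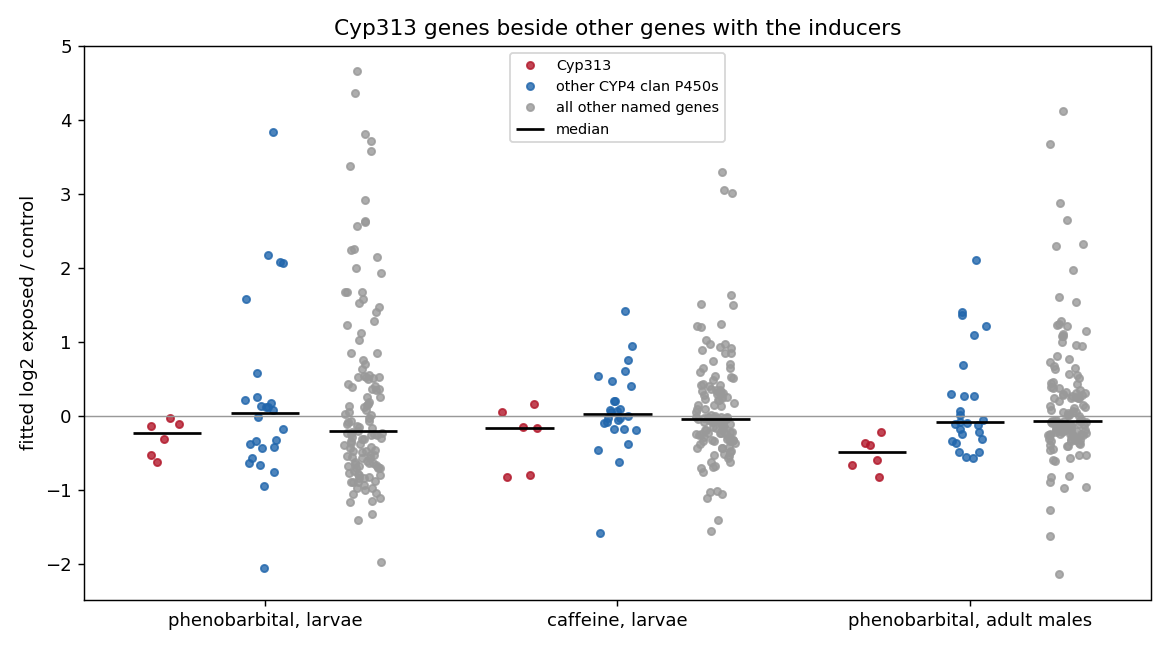
Fitted log2 ratios of exposed over control (vertical axis) of the 6 Cyp313 genes, the 26 other CYP4 clan P450 genes and all other named genes, with phenobarbital in larvae, caffeine in larvae and phenobarbital in adult males. Points are genes and black lines medians. The Cyp313 points stay between -0.82 and 0.17, while other CYP4 clan genes reach 3.84.

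With phenobarbital in adult males the 6 genes were below the array median on each of the 3 arrays. In the order arrays 1 and 3 (exposed pool in Cy5) and array 2 (Cy3), Cyp313a5 read -0.65, -0.64 and -1.75. Cyp313b1 read -0.55, -0.33 and -1.24, and Cyp313a3 read -0.21, -0.47 and -1.51, where the last value rests on 1 spot. The array in Cy3 was the lowest for these genes, as it was for Cyp313a4 (-0.39, -0.17 and -1.07) and Cyp313a1 (-0.33, -0.22 and -0.997). Cyp313a2 was the exception, with -0.82, -0.64 and -0.25. Over all genes with a value on the 3 arrays, 34 of 158 (21.5%) were below the array median on all of them.

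None of these ratios was called in the fit with a common dye term. They were -0.36 ± 0.73 for Cyp313a1, -0.21 ± 0.58 for Cyp313a2, -0.65 ± 0.41 for Cyp313a3, -0.39 ± 0.37 for Cyp313a4, -0.82 ± 0.59 for Cyp313a5 and -0.59 ± 0.31 for Cyp313b1 (SE, n = 3 arrays), with adjusted p in the limma fit from 0.236 to 0.837. The fit with a dye term for each exposure called 4 of the 6 lower, and 27.7% of all genes. Cyp313a5 was at -1.19 ± 0.34 (adjusted p = 0.00784), Cyp313a3 at -0.93 ± 0.20 (0.000934), Cyp313b1 at -0.84 ± 0.19 (0.0013) and Cyp313a4 at -0.68 ± 0.20 (0.00881). In that fit the 1 array in Cy3 carries as much weight as the 2 in Cy5 together. Leaving out array 2 also moved the values in the fit with a common dye term. Without it the ratios were 0.27 for Cyp313a1, 0.43 for Cyp313a2, -0.04 for Cyp313a3, 0.27 for Cyp313a4, 0.04 for Cyp313a5 and -0.01 for Cyp313b1. That refit took its dye term from the other exposures, and both arrays left in it read below 0 for all 6 genes.

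The sign of these ratios depended on the centring. Uncentred, 5 of the 6 were above 0 in the fit with a common dye term, with a median of 0.18 against 0.59 for all genes. With a dye term for each exposure, 3 members were called lower with arrays centred on 4 reference genes and 2 with all spots. Without centring 0 were called. The median of all genes with a common dye term was 0.15 with reference genes and 0.27 with all spots. Whether these counts differ from the share of all genes called there was not tested. Among the other CYP4 clan genes 6 were called higher and 0 lower in the common fit, where 18.2% of all genes were called. Cyp4ae1 rose by 2.11 ± 0.24 and Cyp4e2 by 1.41 ± 0.20 (SE, n = 3 arrays). Est-P, an esterase of the male reproductive tract, stood at -1.27 ± 0.58 (adjusted p = 0.155 in the limma fit) and Cyp4g1 at -0.10 ± 0.26. The part of either tissue in the Cyp313 ratios was not tested.

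The difference between stages was tested within the fit, larval minus adult ratio. No member passed with a common dye term, where 17.6% of genes did, and the differences ran from -0.41 ± 0.77 for Cyp313a2 to 0.55 ± 0.54 for Cyp313a3. Without array 2 of the adults all 6 differences lay below 0, from -1.04 for Cyp313a2 to -0.06 for Cyp313a3. That refit took the adult dye term from the other exposures. With a dye term for each exposure, where 32.7% of genes passed, the larval ratio was higher by 0.83 ± 0.26 for Cyp313a3 (limma, adjusted p = 0.0138) and by 0.66 ± 0.25 for Cyp313a4 (adjusted p = 0.0455). Doses and routes differed between the stages.

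**Figure D4:**
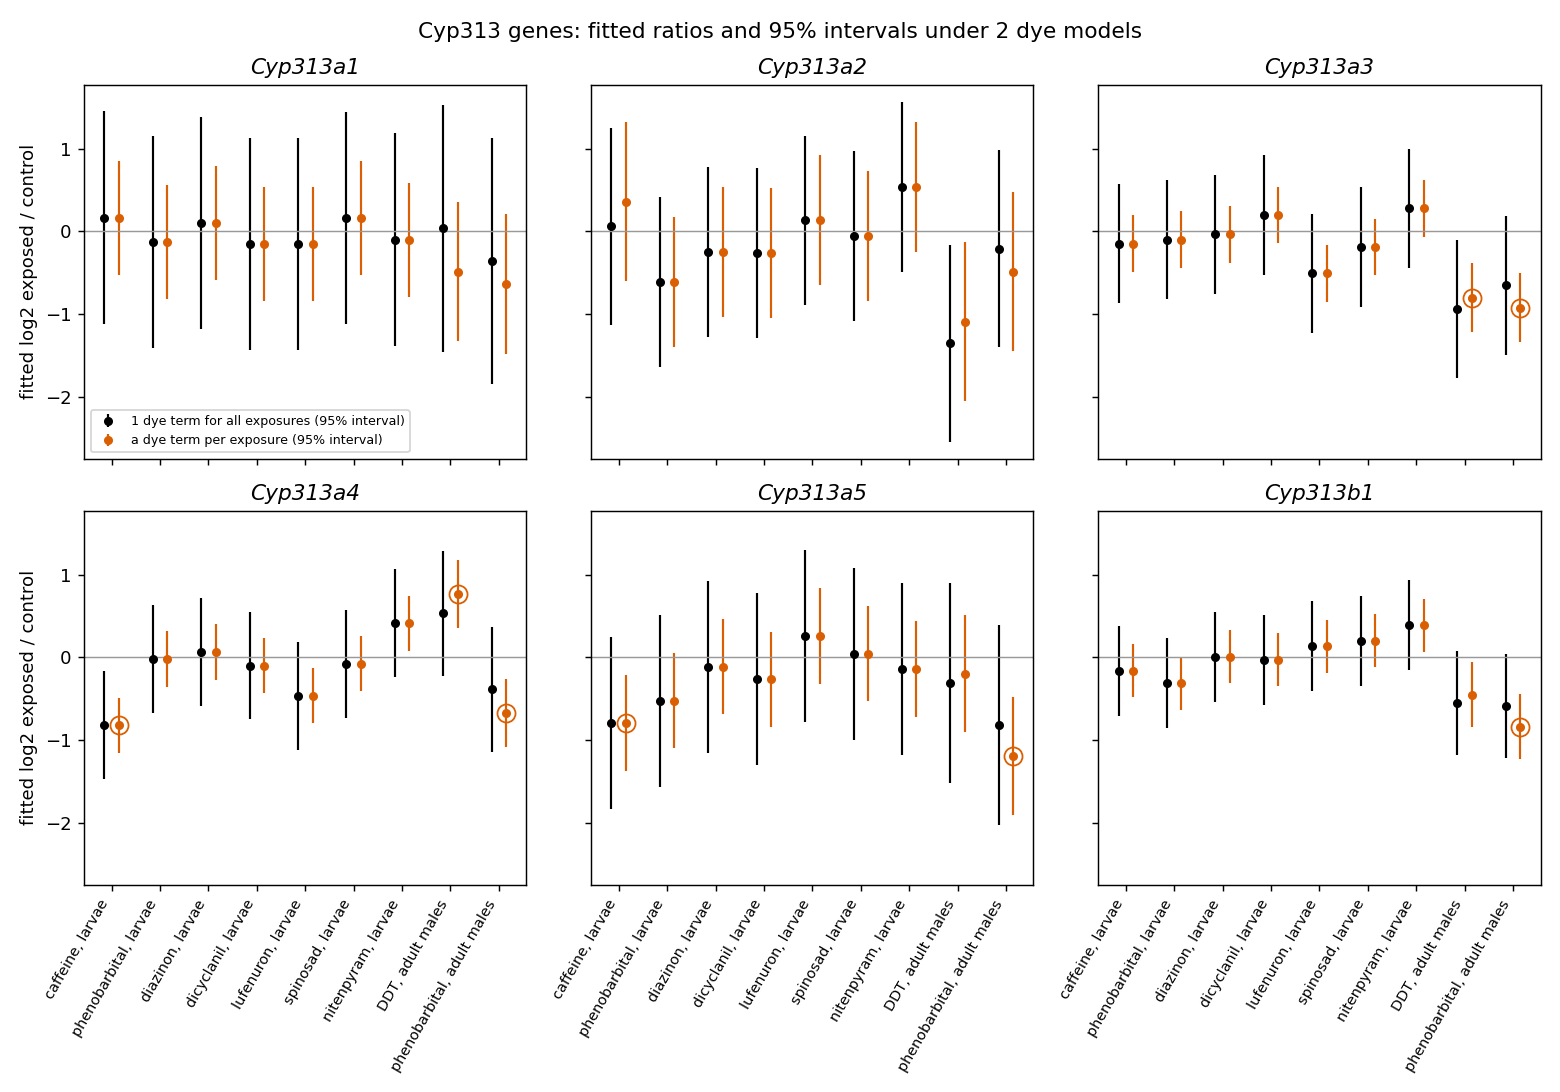
Fitted log2 ratios of exposed over control with 95% intervals for the 6 Cyp313 genes (panels) in the 9 exposures (horizontal axis), with 1 dye term for all exposures (black) and with a dye term per exposure (orange). Large circles mark ratios that passed the call rule. They are all orange, 2 with caffeine, 2 with DDT and 4 with phenobarbital in adult males.

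With DDT in adult males the members went different ways. Cyp313a2 read -2.35 and -3.57 in Cy5 and 0.78 in Cy3, and Cyp313a3 read -0.72 and -2.17 in Cy5 and -0.16 in Cy3. Cyp313a4 read -0.39 and -0.42 in Cy5 and 1.94 in Cy3. Cyp313a3 was the member below 0 on every array, while 22.2% of all genes kept 1 sign on all arrays. The 2 orientation means had opposite signs for 5 of the 6 members, against 71.7% over all genes. The fitted ratios were -1.35 ± 0.58 for Cyp313a2 (adjusted p = 0.192 in the limma fit), -0.94 ± 0.41 for Cyp313a3 (0.194), -0.55 ± 0.31 for Cyp313b1 (0.336), 0.53 ± 0.37 for Cyp313a4, -0.31 ± 0.59 for Cyp313a5 and 0.04 ± 0.73 for Cyp313a1 (SE, n = 3 arrays). Leaving out array 3 moved Cyp313a3 to -0.44, Cyp313a2 to -0.79 and Cyp313a5 to 0.19, and leaving out array 2 moved Cyp313a4 to 0.01 and Cyp313a1 to 1.22. Without array 2 no array in Cy3 was left, so the dye term came from the other exposures.

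When each exposure had its own dye term, 12.6% of genes were called, and among them Cyp313a3 was lower at -0.80 ± 0.20 (adjusted p = 0.00399) and Cyp313a4 higher, at 0.77 ± 0.20 (adjusted p = 0.00483). Cyp313a2 stood at -1.09 ± 0.46 (adjusted p = 0.0791). These 2 calls rest on a single array in Cy3. Cyp313a4 was not among the calls when that fit was centred on the 4 reference genes, whereas Cyp313a3 was called under each centring. The array left out as a copy would, if it belonged to DDT, add in Cy3 a value of 1.22 for Cyp313a4, 1.24 for Cyp313a2 and 0.56 for Cyp313a3. With it kept under DDT and a common dye term, the ratios were 0.59, -0.98 and -0.62, and no member was called.

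The exposures of adult males were also set against each other, DDT minus phenobarbital. No member passed with a common dye term, where 8.18% of genes did. The largest differences were -1.14 ± 0.82 for Cyp313a2 and 0.92 ± 0.52 for Cyp313a4, the latter 0.29 without array 2 of the phenobarbital group and 0.41 without array 2 of the DDT group. Each of these refits took the dye term of the group without array 2 from the other exposures. With a dye term for each exposure, where 28.3% of genes passed, Cyp313a4 was higher with DDT by 1.44 ± 0.28 (limma, adjusted p = 0.000376), the only member to pass.

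Caffeine gave the lowest larval ratios of the family, in Cyp313a4 and Cyp313a5. Cyp313a4 read -2.25 and -1.84 in Cy5 and 0.06 and 0.75 in Cy3, and Cyp313a5 read -1.35 and -2.12 in Cy5 and -0.64 and 0.92 in Cy3. The Cy5 arrays were far below 0 and the Cy3 arrays near or above it, except array 2 for Cyp313a5 at -0.64. The fitted ratios were -0.82 ± 0.32 for Cyp313a4 (adjusted p = 0.068 in the limma fit) and -0.80 ± 0.51 for Cyp313a5 (adjusted p = 0.328), where 17.6% of genes were called. The other 4 lay between -0.16 ± 0.27 for Cyp313b1 and 0.17 ± 0.63 for Cyp313a1 (SE, n = 4 arrays, 3 for Cyp313a2).

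Both were called lower with caffeine in the fit with a dye term for each exposure, where 23.3% of genes were called, Cyp313a4 at an adjusted p of 0.000293 and Cyp313a5 at 0.0254 (limma). Without centring the ratios of that fit were -0.24 for Cyp313a4 and -0.22 for Cyp313a5, and neither was called, nor with the arrays centred on all spots or on the reference genes. The values of Cyp313a4 for both inducers can be compared in larvae: phenobarbital minus caffeine was 0.80 ± 0.45 with a common dye term, where 0 of 6 members and 23.3% of genes passed. It passed with a dye term for each exposure, at 0.80 ± 0.23 (limma, adjusted p = 0.00672), as 1 of 6 members where 37.1% of genes passed. Among the other CYP4 clan genes caffeine gave 4 calls higher, among them Cyp4ae1 at 1.42 ± 0.21, and 2 lower, Cyp316a1 at -1.57 ± 0.31 and Cyp311a1 at -0.62 ± 0.17 (SE, n = 4 arrays).

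With the 5 insecticides given to larvae, no Cyp313 ratio lay farther from 0 than 0.54. With diazinon, an organophosphate inhibitor of acetylcholinesterase, the 6 ratios ran from -0.25 to 0.10. With spinosad, which acts at nicotinic acetylcholine receptors, they ran from -0.19 to 0.20, and with dicyclanil, an insect growth regulator, from -0.27 to 0.20. Lufenuron, an inhibitor of chitin synthesis, gave -0.51 ± 0.35 for Cyp313a3 and -0.46 ± 0.32 for Cyp313a4 and between -0.15 and 0.26 for the others. Nitenpyram, a neonicotinoid, gave the highest family median, 0.33, with Cyp313a2 at 0.54 ± 0.50, Cyp313a4 at 0.41 ± 0.32 and Cyp313b1 at 0.39 ± 0.27 (SE, n = 4 arrays). The adjusted p of each member in these 5 exposures was 0.974 or more in the limma fit with a common dye term. With a dye term for each exposure no member was called. There the adjusted p in the limma fit was 0.0857 for Cyp313a3 and 0.107 for Cyp313a4 with lufenuron.

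Single arrays show how these values arise. With lufenuron Cyp313a3 read -0.14 and -0.31 in Cy5 and -0.78 and -0.81 in Cy3, below 0 on all 4 arrays, whereas Cyp313a4 read -0.98 and -1.21 in Cy5 and 0.19 and 0.14 in Cy3. With nitenpyram Cyp313a2 read -0.45 and -1.67 in Cy5 and 1.72 and 2.55 in Cy3, and 2 of these 4 values rest on 1 spot. Its orientations lay on opposite sides of 0, and the fitted 0.54 is the midpoint of the 2 orientation means.

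The 7 larval pool pairs can also be taken as 1 set, with 1 value per gene and pair. They hold 7 different compounds, so p-values over them measure the spread between compounds and not between repeats of an exposure. The mean over the 7 differed from 0 for 0 of 6 members and 0% of genes. It ran from -0.22 ± 0.13 for Cyp313a5 to 0.03 ± 0.10 for Cyp313b1 (SE, n = 7 pool pairs). At an unadjusted p under 0.05 the limma test picked 15 of the 159 genes and 0 of the members.

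The insecticides as a class were then set against the other compounds, the mean of 5 pairs minus the mean of the caffeine and phenobarbital pairs. For Cyp313a5 the pair values were -0.80 with caffeine, -0.52 with phenobarbital, 0.26 with lufenuron, 0.05 with spinosad, -0.11 with diazinon, -0.14 with nitenpyram and -0.27 with dicyclanil. The 5 insecticide values all lay above the other 2. The difference was 0.62 ± 0.18 (95% interval 0.20 to 1.04, 1.53-fold), and Cyp313a5 was the only member of 6 to pass (limma over 7 pool pairs, adjusted p = 0.0361), where 28.3% of all genes passed. Cyp313b1 stood at 0.38 ± 0.16 (adjusted p = 0.114), Cyp313a4 at 0.39 ± 0.28, Cyp313a2 at 0.15 ± 0.30, Cyp313a3 at 0.07 ± 0.22 and Cyp313a1 at -0.04 ± 0.17.

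That call depended on the centring and lay close to the threshold. The difference for Cyp313a5 was -0.18 without centring (adjusted p = 0.617) and -0.03 with the arrays centred on 4 reference genes (adjusted p = 0.927). In those settings Cyp313a1 passed instead, at -0.84 and -0.69. Without the caffeine pair the difference for Cyp313a5 was 0.48 (adjusted p = 0.0853), and without the diazinon, lufenuron, spinosad or nitenpyram pair it was 0.54 to 0.64, close to the full value, with adjusted p from 0.0587 to 0.0724. The median of all genes in this contrast was 0.07 with arrays centred on the named genes. It was -0.57 with arrays centred on the reference genes and -0.72 without centring. The fit gave all pairs the same error, although their ratios did not spread alike. The SD of the ratios over all genes was 0.18 to 0.30 with the insecticides, 0.70 with caffeine and 1.24 with phenobarbital. Whether unequal errors made this p-value too small was not tested.

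Taken gene by gene, Cyp313b1 was the member measured with the smallest error. Its 9 fitted ratios ran from -0.59 ± 0.31 with phenobarbital in adults and -0.55 ± 0.31 with DDT, through -0.31 ± 0.27 with phenobarbital in larvae, to 0.20 ± 0.27 with spinosad and 0.39 ± 0.27 with nitenpyram. Neighbours in that order differed by less than their errors, and no ratio was called in the fit with a common dye term. On single arrays it ranged from -1.24 (adult phenobarbital, array 2) to 2.04 (nitenpyram, array 4). With spinosad it read -0.10 and 0.00 in Cy5 and 0.58 and 0.32 in Cy3, and with lufenuron -0.04 and 0.13 in Cy5 and 0.32 and 0.13 in Cy3, so that its arrays lay near 0 in both.

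Cyp313a1 was the member with the largest error and the ratios closest to 0. The fitted values ran from -0.36 ± 0.73 with phenobarbital in adults to 0.17 ± 0.63 with caffeine, whereas single arrays ran from -2.07 (dicyclanil, array 3) to 3.13 (caffeine, array 2, on 1 spot). With caffeine it read -1.48 and -1.80 in Cy5 and 3.13 and 0.81 in Cy3. Its orientations lay on opposite sides of 0 in caffeine, larval phenobarbital, diazinon, dicyclanil, spinosad, nitenpyram and DDT. The 95% interval of its caffeine ratio, -1.12 to 1.45, leaves room for changes of more than 2-fold either way.

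Across the 9 exposures, the fitted ratios of Cyp313a2 and Cyp313b1 ran most nearly together among the 15 pairs of members, with a Pearson r of 0.76 (n = 9 exposures). The tandem neighbours Cyp313a2 and Cyp313a3 had an r of 0.62, whereas their neighbour Cyp313a5 had 0.21 with Cyp313a2 and 0.13 with Cyp313a3. Cyp313a2 and Cyp313a4 had the lowest, -0.39. These values describe 9 points that share arrays, centring and dye terms, and the gene errors are as large as most of the ratios. Among genes outside the family, the nearest to Cyp313a2 was Cyp4d1 (r = 0.85), to Cyp313a3 Cyp6a14 (0.86) and to Cyp313a4 Cyp4d20 (0.83). The nearest to Cyp313a5 was phtm (0.85), an ecdysone synthesis P450, which stood at -2.14 with phenobarbital in adults and -1.56 with caffeine. The SD of the arrays about the fit was 1.11 for phtm. The nearest to Cyp313b1 was Cyp28d2 (0.82) and to Cyp313a1 Cyp9c1 (0.79). Each of these genes was picked for the highest r among all genes outside the family, and that choice by itself favours high values.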

How the data were processed

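The deposited table held, per the labels and the values, log2 ratios of the 2 dyes for 1936 spots on 36 arrays. limma is named in the submitters' processing notes. Its version and role, background handling and normalization are not given in the sources used here. The deposited log2 values were taken as Cy5 over Cy3 and not yet turned to exposed over control. Ratios of unnamed spots correlated at -0.54 to -0.91 between dye orientations in each group. A negative correlation arises where unturned ratios follow the sample, but also where turned ratios follow the dye. The unnamed spots therefore cannot decide whether the ratios were turned. Named genes did not settle this: they correlated at -0.67 and -0.60 with phenobarbital in larvae and adults and at -0.02 with caffeine, but at 0.38 to 0.91 in the other 6 groups, whose calls would differ were their ratios already turned. A ceiling value of 16.61 (2301 places) and 8543 empty values were treated as missing. Array medians of named genes ran from -1.95 to 0.63, so each array was centred. A table of probe genes named 656 spots by 1 symbol, 8 by several and 1272 by none. Of the 159 genes, 158 matched the reference annotation (Release 6) by identifier, the 6 Cyp313 genes among them.

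The spots of each gene were averaged. In R 4.3.3, limma 3.58.1 was used to fit a coefficient for each exposure and a common dye term, with Benjamini-Hochberg adjustment over all genes within each comparison. Pool pairs were compared with limma at an adjusted p under 0.05 alone. The fits were tested on simulated data. Figures used matplotlib 3.10.9, numpy 2.4.6 and pandas 2.3.3 under Python 3.11.15. Intensities were not used, so signal over background is unknown, and precision is limited by how many arrays there are. Alternatives changed the centring, spot averaging, dye term, copied array and direction, and left out arrays or pool pairs.

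The genes, lists and tests were chosen with earlier results of these data known. Named were all 6 Cyp313 genes in each exposure, the gene outside the family with the highest Pearson r to each, and, in the exposures described, up to 2 CYP4 clan genes each with the highest and the lowest called ratios. The numbers of the arrays do not pair them: the deviations of arrays with equal numbers correlated at -0.22 to 0.30 over 42 pairs (mean 0.03). Nothing in the labels gives cultures or animals as replicates of a pool.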

Additional observations from a re-analysis of the deposited data

Results flagged for a closer look

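Cyp313a3 read -0.49 on array 3 of the spinosad larvae, while the other 3 arrays of that exposure lay between -0.12 and -0.04. The gap to the nearest array took up a share of 0.8294 of the range of the 4 values, just over Dixon's critical value at 95%. Of 41 groups of 4 arrays tested this was the only one past it, and chance alone marks about 1 in 20.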

How the results depend on the processing

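Under the settings planned or added and outside the leaving out of arrays, 174 of 197 counts of called members kept their value and 23 moved. Of 1182 values of single genes 38 newly passed the call rule, 4 no longer did and 12 that passed in one setting had the other sign in the other. A further 165 values took the other sign while passing in neither, as did 81 of 414 when an array or pool pair was left out. Where a call or direction moved, the cause was not tested. With a dye term for each exposure the members called were 2 with caffeine, 2 with DDT, 4 with phenobarbital in adults, 2 in its contrast of stages, 1 in phenobarbital minus caffeine and 1 in DDT minus phenobarbital. Joined with other centrings, chosen after seeing the data, that fit called 2, 3 and 2 members with DDT (reference genes, all spots and no centring) and 3 and 2 with phenobarbital in adults (reference genes and all spots). It also called 2 with lufenuron (no centring). Whether these counts differ from the share of all genes called in each setting was not tested. With phenobarbital in larvae that fit called 2 higher. Cyp313a3 reversed to 0.61 and Cyp313a4 to 0.69 with reference genes, and to 0.68 and 0.76 without centring. The median of all genes was 0.56 and 0.63 in these settings. Arrays scaled to the same spread gave 2 members with lufenuron, 1 with phenobarbital in adults (Cyp313b1) and 0 for the insecticide contrast. All spots or the median of spots also gave 0 for it, and Cyp313a5 there reversed to -0.029 and -0.18 with reference genes and no centring.

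Were the deposited ratios of the 5 larval insecticides and DDT already exposed over control on each array, 5 members would be called with DDT, 3 with diazinon, 5 with nitenpyram and 0 in the insecticide contrast. Cyp313a1 would read -1.41 with diazinon and 1.31 with nitenpyram, Cyp313a4 -0.90 with DDT, and Cyp313a2, Cyp313a3 and Cyp313b1 -1.60, -1.09 and -1.01 with nitenpyram. With the array number as a replicate block 0 members were called in each exposure and array contrast, and no call of a member changed. Over all genes the calls with DDT went from 10 to 4 under that block. Leaving out 1 array at a time gave 0 to 1 members with caffeine, where Cyp313a4 was called at -1.20 without array 4, and 0 in the other exposures and contrasts of arrays. Leaving out 1 pool pair gave 0 to 1 in the insecticide contrast. The call rule needs errors far below those of Cyp313a1, Cyp313a2 and Cyp313a5 in the fit with a common dye term. Modest changes in these genes were therefore not detectable in that fit.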

Other observations

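The array deposited under both adult exposures was used in no comparison of groups. Read with the exposed pool in Cy3 it held -1.94 for Cyp313a1, 1.24 for Cyp313a2, 0.56 for Cyp313a3, 1.22 for Cyp313a4, 0.38 for Cyp313a5 and 0.28 for Cyp313b1. The DDT array of the same orientation held -1.58, 0.78, -0.16, 1.94, 0.72 and 0.21, and the phenobarbital array -0.997, -0.25, -1.51, -1.07, -1.75 and -1.24. Its values lie on the same side of 0 as those of the DDT array for 5 of the 6 genes and of the phenobarbital array for 1.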
